A study of Homo sapiens with 6 samples.

Results

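The forkhead and SOX genes encode 2 large families of transcription factors that set the identity of cells during development. They were followed in an assay of open chromatin in MDA-MB-231 cells, an established human triple-negative breast cancer line, with and without SAP30. The members were chosen by name from the GENCODE annotation of GRCh37 (hg19), as protein-coding genes on chromosomes 1 to 22 and X whose symbol starts with FOX, a letter from A to S and a digit, or is SOX followed by a number. This gave 71 members of 20098 protein-coding genes, 52 of them with a forkhead symbol and 19 with a SOX symbol. One forkhead gene was not analysed here. FOXL2NB, the neighbor of FOXL2, carries a matching symbol and is counted among the 52, although it does not encode a forkhead protein.

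ATAC-seq marks open DNA with a transposase, and 3 libraries of Parental cells were compared with 3 libraries of SAP30-KO1 cells, grown in the same medium. SAP30 is a subunit of the SIN3 corepressor complex, and the knockout cells, made with CRISPR/Cas9, were a mixture of several selected cells and not 1 clone. The comparison asked whether accessibility at these genes differed between the SAP30-KO1 and Parental cells. The SAP30-KO1 cells came from a single guide and, per the methods, passed through puromycin selection. The Parental cells were not the scrambled control that the paper used elsewhere. Loss of SAP30 can therefore not be told apart from effects of the guide or of selection. Nothing in the labels says that the replicates were separate cultures, so the p-values measure the spread between these libraries, which may be technical.

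Forkhead proteins bind DNA through a winged-helix domain, and some of them, such as those of the FOXA class, can bind sites in closed chromatin and open them. SOX proteins carry a high-mobility-group domain that bends DNA from the minor groove, and they usually act with a partner factor on the same element. The subgroups (FOXA to FOXS, SOXB1 to SOXH) hold genes of related sequence. In breast cancer, FOXC1 and SOX10 are known markers of the basal-like type, FOXM1 drives genes of mitosis, and the FOXO factors are restrained by insulin and AKT signaling. Many genes of both families are held by Polycomb repressors in the tissues that do not use them, and their start sites are often rich in CpG dinucleotides.

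For each library the data were a list of peak summits, each with a score. Lists of separate libraries are not on a common scale, so each score was turned into its percentile rank within its own list, from 0 to 100. The promoter rank of a gene is the highest rank of a summit within 1 kb of any of its start sites, and it is 0 where the library had no such summit. A gene was called open when all 6 libraries had a promoter summit, closed when none had one and variable otherwise. Closed therefore means that no peak was called, not that the site was shown to be inaccessible. A rank compares the strength of peak calls and is not an amount of open DNA. In a bulk assay, a site open in fewer cells and a site less open in each cell cannot be told apart.

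The lists held 29762 to 40650 summits, and the number of reads behind them is unknown. Among markers of the line, 7 of 10 genes (such as VIM and CD44) were open and 0 were closed. Of 10 luminal genes 0 were open, 7 were variable and 3 (CDH1, KRT19 and TFF3) were closed, and 6 of 8 blood cell genes were closed. Of 7 neural crest and melanocyte genes, 2 (MITF and PMEL) were open and 4 were closed. Over all protein-coding genes 34.7% were open and 37.5% were closed. By share, the luminal list held fewer open genes than all genes but not more closed ones. The SAP30 promoter, which cannot check the knockout, ranked 84.7, 64.8 and 81.3 in Parental and 71.8, 49.5 and 89.5 in SAP30-KO1.

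The sequences at the strongest summits of the members that the results turn on are shown first, on the strand of the gene. Each holds 100 bases on either side of the summit, in GRCh37, cut short where an annotated untranslated exon begins. In all, 6 motifs were searched on both strands: the forkhead site TGTTTAC, the SOX core ACAAAG, the SOX core ACAATG, the CCAAT box CCAAT, the GC box GGGCGG and the AP-1 site TGANTCA. No motif contains another, and capitals mark the matches. SOX2, SOX12, SOX5 and FOXL3 were the members whose ranks in the 2 groups did not overlap, and FOXO1 is shown at both of its promoter sites. The windows are SOX2 at chr3:181429312-181429512 (+), SOX12 at chr20:306050-306195 (+), SOX5 at chr12:24102605-24102765 (-), FOXL3 at chr7:331724-331924 (+), and FOXO1 at chr13:41240873-41241073 (-) for its canonical start and chr13:41137025-41137225 (-) for the internal start.
SOX2: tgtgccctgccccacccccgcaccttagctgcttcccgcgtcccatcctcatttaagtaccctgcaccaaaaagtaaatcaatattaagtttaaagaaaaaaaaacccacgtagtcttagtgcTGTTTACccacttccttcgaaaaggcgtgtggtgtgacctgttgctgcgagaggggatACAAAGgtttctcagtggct
SOX12: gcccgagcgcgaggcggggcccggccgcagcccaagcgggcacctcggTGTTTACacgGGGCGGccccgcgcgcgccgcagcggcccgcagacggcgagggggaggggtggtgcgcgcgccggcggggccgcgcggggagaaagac
SOX5: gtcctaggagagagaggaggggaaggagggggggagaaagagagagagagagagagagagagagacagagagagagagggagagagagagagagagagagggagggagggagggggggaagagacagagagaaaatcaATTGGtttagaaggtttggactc
FOXL3: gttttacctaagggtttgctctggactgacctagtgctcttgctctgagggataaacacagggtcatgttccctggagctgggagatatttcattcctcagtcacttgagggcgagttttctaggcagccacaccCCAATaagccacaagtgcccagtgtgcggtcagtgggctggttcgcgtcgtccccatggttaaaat
FOXO1 canonical: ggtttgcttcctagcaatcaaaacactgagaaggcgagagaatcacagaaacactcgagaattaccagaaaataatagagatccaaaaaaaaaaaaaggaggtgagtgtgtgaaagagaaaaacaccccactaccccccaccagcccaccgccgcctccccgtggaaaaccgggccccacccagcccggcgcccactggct
FOXO1 internal: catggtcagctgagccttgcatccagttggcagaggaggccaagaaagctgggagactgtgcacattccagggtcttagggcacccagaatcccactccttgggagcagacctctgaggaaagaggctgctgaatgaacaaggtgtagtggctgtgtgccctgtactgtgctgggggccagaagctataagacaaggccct

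The SOX12 window was 82.9% G and C and held a GC box 3 bases after a forkhead site. The SOX2 window, at 48.3%, held a forkhead site upstream of a SOX core. The SOX5 window was a run of purines with a CCAAT box near its 3′ end and no CpG dinucleotide. Neither FOXO1 window held any of the 6 motifs, and the internal one had 0 CpG dinucleotides against 8 in the canonical one. The strongest summits of SOX6 and SOX4 lay in annotated untranslated exons and are not shown. A match describes the letters in these windows and does not show that a factor was bound.

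Of the 71 members, 17 (23.9%) were open, 11 (15.5%) were variable and 43 (60.6%) were closed. Over all protein-coding genes, 34.7% were open, 27.9% were variable and 37.5% were closed. The forkhead genes held 13 open, 7 variable and 32 closed members, and the SOX genes 4, 4 and 11. The open members ranked in the middle of the lists, with a median over genes of 55.5 for the mean of the 6 libraries (54.6 in forkhead and 70.0 in SOX genes), against 71.3 for all open genes. The median within-group SD of the rank was 17.2 over the open members and 12.4 over all open genes. A percentile near the top of a list has little room to vary, and genes of like rank were not compared. The larger SD can therefore not be told apart from the lower ranks of the members. These shares and medians are descriptions without a test.

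The open forkhead genes were FOXA3, FOXC1, FOXD2, FOXJ2, FOXK2, FOXN2, FOXN3, FOXO1, FOXO3B, FOXO6, FOXP1, FOXP4 and FOXQ1. FOXN2 stood at 99.4, 98.9 and 98.6 in Parental and at 99.3, 97.8 and 99.3 in SAP30-KO1, within the top 3% of every list. FOXD2, a factor of kidney mesenchyme, stood at 86.2, 61.2 and 95.8 in Parental and at 96.7, 95.3 and 97.4 in SAP30-KO1. The 2 groups overlapped for both genes. FOXQ1, which is linked to epithelial-mesenchymal transition in breast cancer cells, stood at 67.8, 74.2 and 52.8 in Parental and at 50.1, 77.8 and 79.9 in SAP30-KO1. FOXC1, its neighbor on chromosome 6 and a basal-like marker, stood at 39.2, 49.1 and 27.6 in Parental and at 32.6, 80.3 and 65.8 in SAP30-KO1. Both were open in every library, with ranges that overlapped.

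FOXN3, a repressor of the FOXN class, stood at 60.8, 59.3 and 78.4 in Parental and at 26.4, 54.4 and 66.8 in SAP30-KO1, and most of these values came from a start site far upstream of its canonical one (at -202152 bp). FOXA3, of the FOXA class of liver and gut factors, stood at 40.4, 64.1 and 53.0 in Parental and at 72.5, 49.1 and 53.9 in SAP30-KO1, at a site that also lay within 1 kb of a start of SYMPK. FOXK2, a factor tied to autophagy and metabolic genes, stood at 66.4, 34.0 and 35.0 in Parental and at 17.7, 53.8 and 42.3 in SAP30-KO1. None of these 3 genes separated the groups. FOXP1, a regulator of B cell and heart development, stood at 38.6, 76.8 and 50.7 in Parental and at 22.1, 31.3 and 75.2 in SAP30-KO1. FOXP1 was open only through internal starts: at its canonical start no library had a summit within 1 kb.

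The 4 open SOX genes were SOX2, SOX6, SOX9 and SOX13. SOX6, which works with SOX5 in cartilage, stood at 95.8, 95.7 and 95.9 in Parental and at 93.1, 97.3 and 96.9 in SAP30-KO1. That site lay at -382204 bp from the canonical SOX6 start and within 1 kb of a start of C11orf58, so the 2 genes cannot be told apart there. SOX9, a factor of cartilage and of mammary stem and progenitor cells, stood at 83.8, 43.2 and 69.4 in Parental and at 80.6, 62.6 and 53.5 in SAP30-KO1, with group means of 65.5 ± 20.6 and 65.6 ± 13.8 (SD, n = 3). SOX13 was the least even of the open SOX genes, at 34.8, 39.5 and 71.6 in Parental and at 2.43, 84.1 and 5.74 in SAP30-KO1, and its calls came from 2 sites, one of them seen in 2 Parental libraries only.

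The variable members were FOXM1 and FOXO4 (2 of 6 libraries), FOXA2 and FOXP2 (4 of 6), and FOXD3, FOXJ3, FOXL3, SOX4, SOX5, SOX12 and SOX21 (5 of 6). No member had a promoter summit in at least 2 libraries more of one group than of the other. Of the 7 seen in 5 libraries, 3 were missing in Parental 2, 2 in Parental 3, 1 in Parental 1 and 1 in SAP30-KO1 library 1. The last was SOX21, whose site did hold a summit in that library, at rank 42.5, but outside the 1 kb limit. Parental 2 and SAP30-KO1 library 1 had the 2 shortest lists, with 30477 and 29762 summits. FOXM1, the driver of G2 and mitosis genes, was close to the limit of calling, at 11.1, 0 and 0 in Parental and at 0, 31.3 and 0 in SAP30-KO1, although its start region is CpG-rich and shared with RHNO1 and TULP3. SOX4, a factor linked to TGF-beta signaling in breast cancer cells, stood at 87.6, 0 and 67.0 in Parental and at 31.0, 58.3 and 53.3 in SAP30-KO1.

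**Figure D1:**
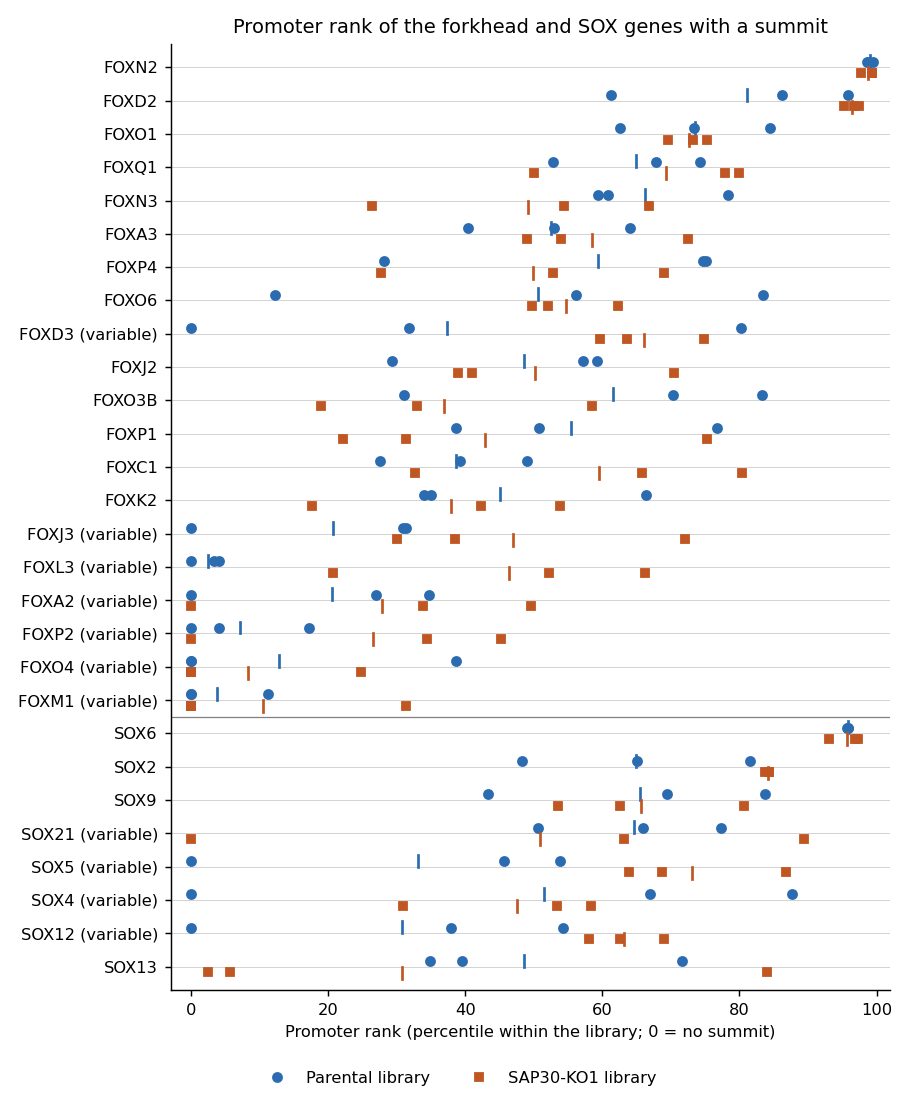
Promoter rank (x axis, percentile within the library) of the 28 members with a summit in at least 1 library, with 1 point for each library, blue circles for Parental, orange squares for SAP30-KO1 and a short vertical line at each group mean. FOXN2 and SOX6 sit near 100 in all 6 libraries, and SOX2, SOX5, SOX12 and FOXL3 are the 4 members whose squares all lie to the right of their circles.

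Closed forkhead genes included FOXB1, FOXB2, FOXC2, FOXD1, FOXD4, its copies FOXD4L1, FOXD4L2, FOXD4L3, FOXD4L4, FOXD4L5 and FOXD4L6, FOXE1, FOXE3, FOXF1, FOXF2, FOXH1, FOXI1, FOXI2, FOXI3, FOXJ1, FOXK1, FOXL1, FOXL2 with FOXL2NB, FOXN1, FOXN4, FOXO3, FOXP3, FOXR1, FOXR2 and FOXS1. Closed SOX genes were SOX1, SOX3, SOX7, SOX8, SOX10, SOX11, SOX14, SOX15, SOX17, SOX18 and SOX30. They included FOXP3 of regulatory T cells, FOXN1 of thymic epithelium, FOXJ1 of ciliated cells, FOXE1 of the thyroid and SOX10 of the neural crest. The FOXD4 copies are uncertain, since 42.2% to 100% of the 75-base windows around their starts also occur at another copy, and a read from such a window could not be placed among them. SOX10, a basal-like marker, had its nearest summit 12479 bp from a start.

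The 43 closed members differed in how far the nearest summit of any library lay from their starts, with a median of 14865 bp. In 4 of them it lay within 2.5 kb (FOXK1 at 1629 bp, FOXH1 at 1937 bp, FOXB1 at 2041 bp and SOX3 at 2391 bp), and 10 had no summit within 50 kb of the gene. These 10 included FOXD4L2, FOXD4L3, FOXD4L4, FOXD4L5 and FOXD4L6, where reads shared between copies may not have been placed. Without FOXD4, its copies and FOXL2NB, 35 members were closed. FOXC2 was 2666 bp, SOX18 4566 bp, FOXF2 7495 bp, FOXO3 17314 bp, FOXJ1 28967 bp, SOX11 32165 bp and SOX17 93799 bp from the nearest summit. FOXO3, the FOXO factor most studied in stress and survival, was thus closed by this rule, whereas FOXO3B, its copy on chromosome 17, stood at 83.3, 70.3 and 31.0 in Parental and at 19.0, 58.5 and 33.0 in SAP30-KO1. The FOXO3B site also lay within 1 kb of a start of ZNF286B.

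The subgroups were not alike. All 3 SOXD genes had a promoter summit (SOX6 and SOX13 open, SOX5 variable), as did 2 of 3 SOXC genes (SOX4 and SOX12, both variable) and 4 of 5 FOXO genes (3 of them open). All 3 SOXF genes, the factors of blood and lymph vessels, were closed, and so were all 3 FOXI genes and both members of FOXB, FOXE, FOXF and FOXR. In SOXE, SOX9 was open and SOX8 and SOX10 were closed. In SOXB1, SOX2 was open, whereas SOX1 and SOX3 were closed. FOXD was the largest subgroup with 10 genes, of which 8 were closed, 7 of these being FOXD4 and its copies.

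**Figure D2:**
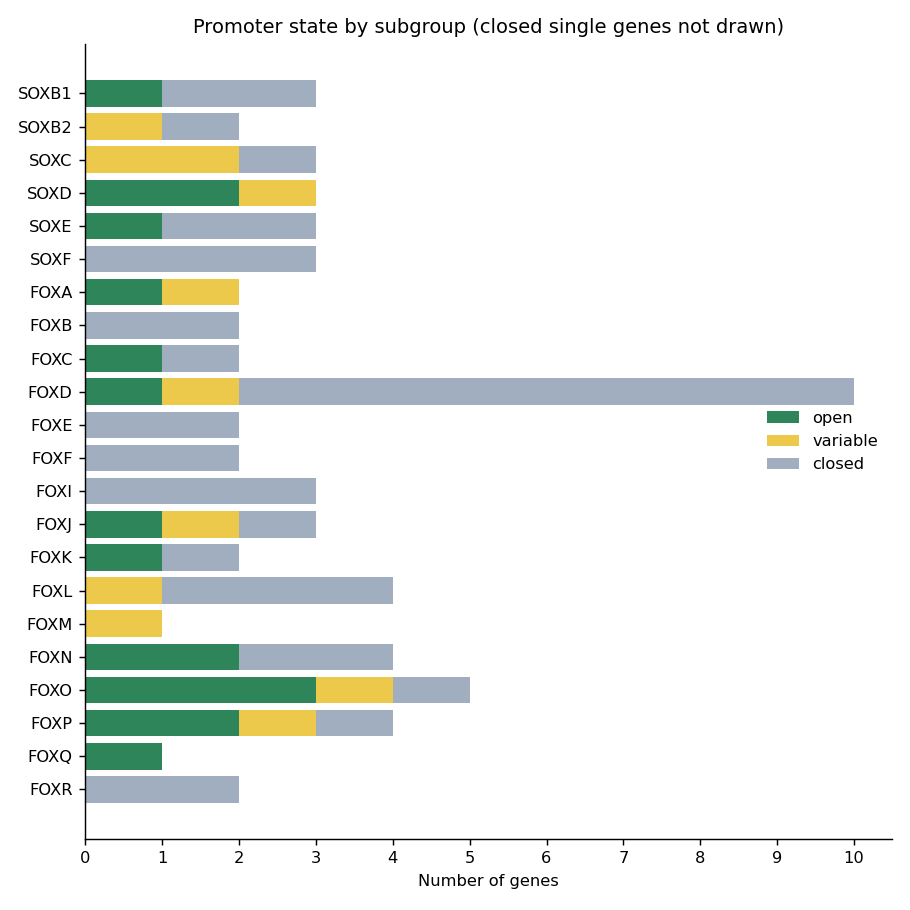
Number of genes (x axis) in each SOX and forkhead subgroup (y axis) that were open in all 6 libraries (green), variable (yellow) or closed in all 6 (gray). Subgroups of 1 closed gene are not drawn. The 3 SOXF and 3 FOXI genes are gray throughout, and the 3 SOXD genes have no gray.

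Clusters of neighboring forkhead genes were open or closed in part. On the short arm of chromosome 6, FOXQ1 and FOXC1 were open and FOXF2, which lies between them, was closed. Around FOXQ1, 2 further sites were seen in all 6 libraries, 13619 and 23439 bp past its start, with mean ranks of 76.3 and 86.5, both above its promoter at 67.1. On the long arm of chromosome 16, FOXF1, FOXC2 and FOXL1 were all closed. There the site with the highest mean rank, 45.6, lay 53177 bp past the start of FOXL1.

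**Figure D3:**
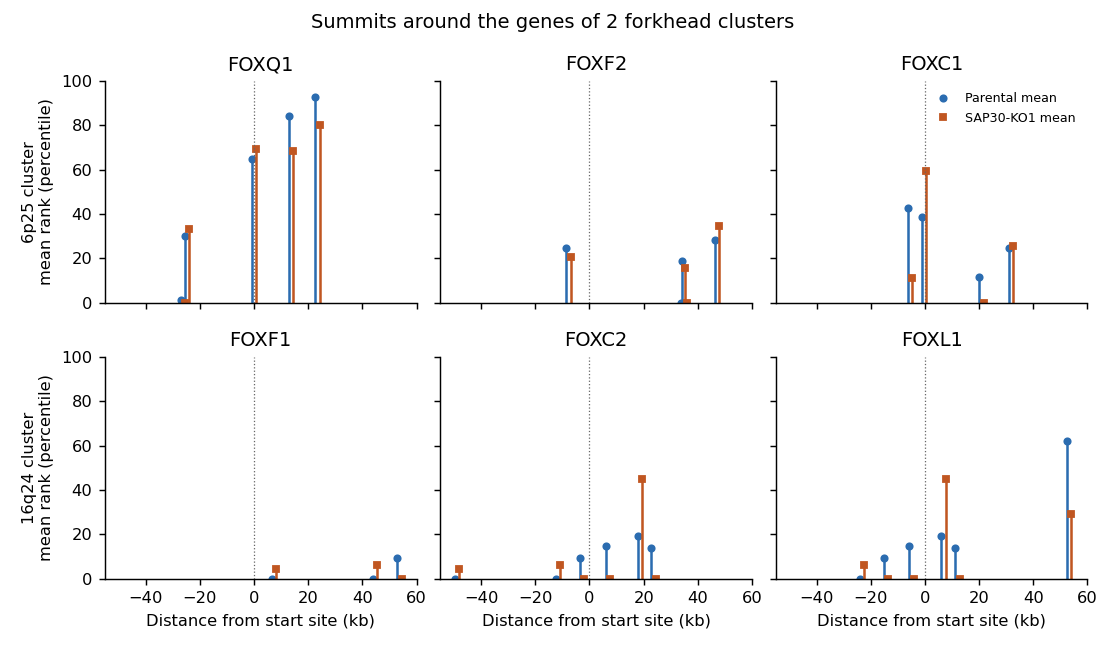
Mean rank of each site (y axis, percentile within the library, 0 where a library had no summit) against its distance from the canonical start of the named gene in kb (x axis, upstream to the left), for 3 neighboring forkhead genes on chromosome 6 (top) and 3 on chromosome 16 (bottom). Blue circles are Parental means and orange squares SAP30-KO1 means (n = 3 libraries), drawn slightly to the left and right of each site. FOXQ1 and FOXC1 have a site at distance 0, and the other 4 genes have none.

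Most closed members had CpG-rich starts. A start was called CpG-rich when the observed CpG count over 1001 bases was more than 0.6 times that expected from its base composition. By this measure 16 of 17 open, 8 of 11 variable and 30 of 43 closed members (69.8%) were CpG-rich, against 33.6% of all closed genes. Of the 54 CpG-rich members, 30 (55.6%) were closed and 29.6% were open. Among all CpG-rich genes 19.1% were closed and 46.9% were open. Of the 17 CpG-poor members 76.5% were closed, beside 73.0% of all CpG-poor genes. The difference from other genes was therefore larger among CpG-rich starts, and no test was made of it. The only CpG-poor open member was SOX6, whose open site lay at another start.

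**Figure D4:**
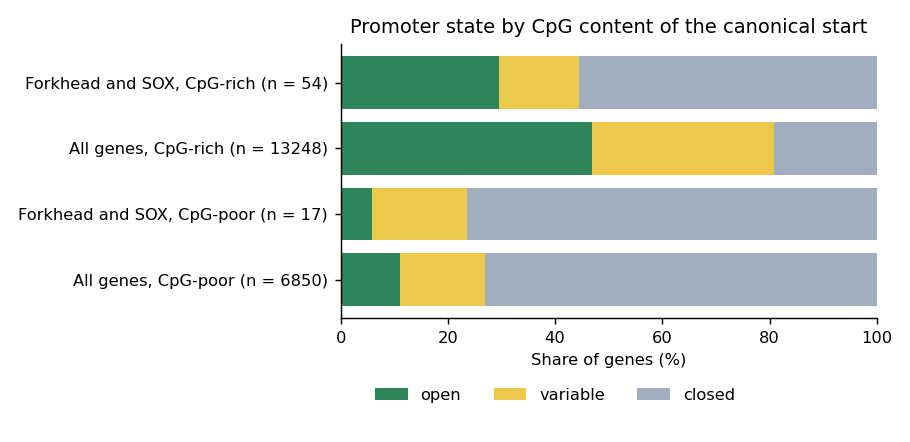
Share of genes (x axis, %) that were open (green), variable (yellow) or closed (gray), for CpG-rich and CpG-poor canonical starts of the forkhead and SOX genes and of all protein-coding genes. Closed genes make up 55.6% of the 54 CpG-rich members and 19.1% of the CpG-rich genes overall.

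The promoter sites are described next by features that the choice of genes did not use. In 23 of the 28 members with a summit, the strongest site lay upstream of the nearest start of the gene, with a median position of -205 bp. In 21 it lay within 1 kb of the canonical start. In 12 it also lay within 1 kb of a start of another gene, 3 of them coding and 9 noncoding, such as SOX2-OT, SOX9-AS1, SOX21-AS1, FOXD3-AS1 and FOXP4-AS1. In all, 10 members had more than 1 promoter site, which gave 44 sites in all. These positions and counts were not computed over all genes, so they are not shown to be particular to the members. The distance from a start is also bounded by the 1 kb rule. With 100 bases taken on either side of the summit, the GC box stood in 52.3% of these sites, beside 45.0% of all 16629 promoter sites, and the CCAAT box in 11 of 44 beside 20.6%. The forkhead site stood in 2 of 44 (4.55%, at SOX2 and SOX12) beside 1.71%, the SOX core ACAAAG in 11.4% beside 9.06%, the SOX core ACAATG in 6.82% beside 4.82% and the AP-1 site in 2.27% beside 7.37%.

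The comparison of Parental with SAP30-KO1 libraries gave no member, and no gene, past the test. Members with a promoter summit numbered 27, 21 and 24 in Parental and 24, 26 and 27 in SAP30-KO1 cells, or 24 ± 3 and 25.7 ± 1.53 (SD, n = 3). The mean promoter rank over all 71 members, zeros included, was 19.1 ± 3.36 in Parental and 21.4 ± 3.11 in SAP30-KO1, a difference of 2.31 that was smaller than either SD. Over all genes the same difference was 0.717. Of the 28 members with a promoter summit, 16 were higher and 12 lower in SAP30-KO1 by their group means, with a median difference of 2.86 ranks beside 0.679 over 12564 genes. An exact two-sided permutation test over the 20 ways to split the 6 libraries cannot give a p below 0.1, and after Benjamini-Hochberg adjustment over the 12564 genes the smallest value was 0.945. Thus 0 genes passed, adjusted or unadjusted, at 0.05.

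Ranges of the 2 groups that do not overlap are therefore given as a description. In 4 of 28 members every SAP30-KO1 library ranked above every Parental library, where 6.01% of all genes did so (exact p = 0.1 for each, adjusted p = 0.945). In 0 of 28 every SAP30-KO1 library ranked lower, where 4.58% of genes did so. When SAP30-KO1 library 1 was left out, the higher count was 8 of 28, with 14.4% of all genes then apart in that direction. The lower count was 2 without Parental 2 or without SAP30-KO1 library 3, and 1 without Parental 3 or without SAP30-KO1 library 2, with 7.18% to 10.8% of genes then apart. The higher count was also 4 when each summit was ranked among those of its own chromosome arm.

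SOX2, a pluripotency factor also found in breast cancer stem-like cells, ranked 81.5, 48.2 and 65.1 in Parental and 84.3, 84.4 and 83.8 in SAP30-KO1. The SAP30-KO1 values lay close together above a wide Parental spread (64.9 ± 16.6 and 84.1 ± 0.303), and the highest Parental library came within 3 ranks of them. SOX12, a SOXC factor related to SOX4, ranked 54.3, 0 and 37.9 in Parental and 58.1, 62.6 and 69.0 in SAP30-KO1. Its means were 30.7 ± 27.8 and 63.2 ± 5.48, and the 0 belonged to Parental 2. The SOX12 site also lay within 1 kb of a start of the noncoding gene NRSN2-AS1. Without Parental 2 the difference was 10.8 in place of 19.2 for SOX2 and 17.1 in place of 32.5 for SOX12. With promoter windows of 2.5 kb the SOX12 difference was 18.5.

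SOX5, a SOXD factor of cartilage and neurons, ranked 53.9, 45.6 and 0 in Parental and 86.8, 63.9 and 68.7 in SAP30-KO1, with means of 33.2 ± 29.0 and 73.1 ± 12.1. Its Parental 2 value came from a different site, at -612191 bp, and the site at the canonical start ranked 19.1 there. Without Parental 3 the SOX5 difference was 23.4 in place of 40.0. FOXL3, whose start is CpG-rich and which is known mainly from germ cells of fish, ranked 0, 3.39 and 4.04 in Parental and 52.2, 66.2 and 20.7 in SAP30-KO1. By the highest rank of a gene this was the largest difference of the 28 members, 43.9 ranks, at a site 1688 bp past its canonical start and 514 bp past another. With promoter windows of 500 bp the FOXL3 difference was 6.90, with the canonical start alone it was 0, and the SOX5 difference was then the larger, 48.8 under either choice. The median rank difference over loci seen in all 6 libraries was 1.22 on the arm of SOX2, 1.66 on that of SOX5, 1.76 on that of SOX12 and 3.42 on that of FOXL3, and the part of such a shift in these results was not tested.

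Taking each promoter site on its own, a choice made after the values were seen, showed 2 sites that the highest rank of a gene had hidden. Of the 44 sites, 4 were higher in every SAP30-KO1 library, beside 5.47% of all promoter sites, and these belonged to SOX2, SOX5, SOX12 and FOXL3. Lower in every SAP30-KO1 library were 2, beside 4.49%, and these belonged to FOXO1 and FOXP1. The site at the canonical FOXO1 start ranked 25.3, 39.5 and 50.7 in Parental and 5.69, 0 and 6.5 in SAP30-KO1, with means of 38.5 ± 12.7 and 4.06 ± 3.54. FOXO1 is a target of insulin signaling that drives genes of cell cycle arrest and gluconeogenesis.

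The other FOXO1 site, at an internal start 103653 bp into the gene, ranked 62.6, 73.4 and 84.5 in Parental and 69.6, 75.2 and 73.2 in SAP30-KO1. Both sites lie in the same gene, and only the ranges of the canonical one were apart. As the sequences above show, the canonical window held 8 CpG dinucleotides and the internal one none. A link between CpG count and the rank difference was not tested. The FOXP1 site, at an internal start 471570 bp past the canonical one, ranked 38.6, 76.8 and 50.7 in Parental and 22.1, 31.3 and 27.0 in SAP30-KO1. For both lower sites the exact permutation p was 0.1, the smallest possible. The median difference was -3.12 ranks on the arm of FOXO1 and 0.378 on that of FOXP1.

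**Figure D5:**
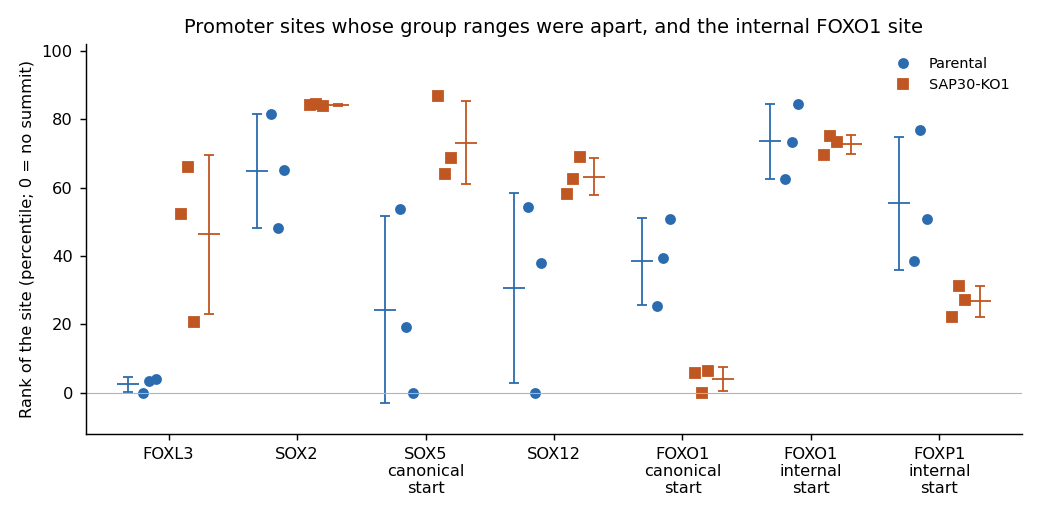
Rank of single promoter sites (y axis, percentile within the library, 0 for no summit) in the 3 Parental (blue circles) and 3 SAP30-KO1 libraries (orange squares), with the mean and SD beside the points. The first 4 sites are higher in every SAP30-KO1 library, the canonical FOXO1 site (38.5 against 4.06 on average) and the FOXP1 site are lower, and the internal FOXO1 site overlaps.

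Around the genes, within 50 kb of their bounds, the libraries held 145 to 233 summits. Scaled to 10000 summits of each list these were 52.6, 54.5 and 56.9 in Parental and 48.7, 57.3 and 49.6 in SAP30-KO1, or 54.7 ± 2.17 and 51.9 ± 4.73 (SD, n = 3), and the groups overlapped. Open members had a median of 3.67 summits within 50 kb, variable ones 2.83 and closed ones 1.33, beside 2.67 over all genes. These counts span the whole gene and include the promoter summits that define open, variable and closed. Part of this order therefore follows from the rule, and gene length was not accounted for. FOXP1 had the most, with 17, 16 and 13 summits in Parental and 6, 21 and 14 in SAP30-KO1. SOX6 had 15, 12 and 11 in Parental and 11, 16 and 14 in SAP30-KO1. Both are long genes, and most of their sites lay within the gene (25 of 31 loci at FOXP1 and 15 of 23 at SOX6).

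SOX12 followed with 9, 7 and 9 summits in Parental and 9, 10 and 11 in SAP30-KO1. FOXN3 had 8, 7 and 7 in Parental and 5, 14 and 5 in SAP30-KO1. FOXK1, closed at its starts, had 6, 4 and 6 in Parental and 6, 9 and 5 in SAP30-KO1. Of the 61 members with a summit in this range, 0 had more in every SAP30-KO1 library after scaling, beside 5.51% of 18717 genes, and 2 had fewer, SOX5 and FOXB1, a share below the background of 5.78%. SOX5 had 5, 4 and 5 summits in Parental and 3, 4 and 3 in SAP30-KO1, so that the counts touched at 4 and were apart only after scaling. The exact permutation p was 0.1, with an adjusted p of 0.881, and 0 genes passed.

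Summits of the 6 libraries near one another were joined into 310 loci around the members, of which 77 (24.8%) were seen in all 6 libraries, beside 28.9% of all loci. None was seen in all 3 libraries of one group and in none of the other. Of the 56403 loci of the genome, 0.876% were seen so in Parental only and 1.43% in SAP30-KO1 only. The count of 0 of 310 lay below both shares, and no test was made of it. Away from any promoter lay 194 of the 310. The AP-1 site stood in 31 of these 194, beside 22.5% of all loci away from promoters, and the GC box in 12.9% beside 5.61%. The forkhead site (4.64% beside 4.0%) and the SOX core ACAAAG (13.9% beside 16.4%) stood close to the shares of all such loci.

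Several sites away from promoters ranked above the promoter of the gene they lay in or beside. A site within FOXN3, 279328 bp past its start, had a mean rank of 97.9 over 6 libraries, far above the FOXN3 promoter at 57.7. A site within FOXK1 stood at 92.9 and one 45434 bp past the start of FOXI1 at 96.6, and both genes were closed. At SOX9, sites at -23589 and 30747 bp from the start stood at 93.2 and 91.3, above the promoter at 65.5. At SOX2 a site at -16541 bp stood at 85.1 and the promoter at 74.5. Whether these sites act on the named genes was not measured.

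Of the 194 loci away from promoters, 5 ranked higher in every SAP30-KO1 library, beside 6.03% of such loci genome-wide, and 6 ranked lower, beside 4.17%. Both shares of the 194 were below those of the genome. They are named here after their values were seen. The site 23439 bp past the start of FOXQ1 ranked 94.9, 89.4 and 94.5 in Parental and 74.5, 84.6 and 81.1 in SAP30-KO1, while the FOXQ1 promoter overlapped between the groups. A site 87239 bp past the start of FOXB1 ranked 98.0, 88.4 and 96.5 in Parental and 71.4, 68.5 and 71.3 in SAP30-KO1. Inside FOXN2, a site 29513 bp past the start ranked 68.2, 55.3 and 61.6 in Parental and 28.0, 0 and 0 in SAP30-KO1, whereas the promoter ranked 97.8 or more in all 6 libraries. The 3 other lower sites lay beside FOXL1, FOXH1 and FOXE1, and the 5 higher ones at SOX5, SOX8, FOXC2, FOXS1 and SOX3. The exact permutation p was 0.1 for each, which is the smallest possible.

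Genes known to be acted on by these factors were looked at by the same promoter rule. Over all protein-coding genes, 34.7% were open and 37.5% were closed. Of 16 FOXM1 targets of mitosis, 12 were open (among them CCNB1, PLK1 and AURKA). FOXM1 itself was seen in 2 libraries, and a link between the state of a factor and that of its targets was not tested. Of these targets, 1 (CDC20) was higher and 2 (CDC25B and SKP2) were lower in every SAP30-KO1 library, beside 6.01% and 4.58% of all genes with a promoter summit. Of 17 FOXO targets 9 were open, and SESN3, a stress response gene, was lower in every SAP30-KO1 library. Of 18 SOX targets and partners 1 (POU3F2) was open and 13 were closed, among them the cartilage genes COL2A1 and ACAN and the pluripotency genes POU5F1 and NANOG, and POU3F1 was lower in every SAP30-KO1 library. No list was tested against these shares of all genes. SESN3 lies on the long arm of chromosome 11, and CDC20 and POU3F1 lie on the short arm of chromosome 1. Over loci seen in all 6 libraries, the median rank difference was -14.7 on the first of these arms and 5.28 on the second. The part of such shifts in these results was not tested. The median rank differences of the 3 lists were -0.756, 4.5 and -0.533, beside 0.679 over all genes, and none of these genes passed the adjusted test.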

How the data were processed

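Per the labels and the methods of the study, single-end reads of 75 bases were checked with FastQC 0.11.2, trimmed with Trim Galore 0.4.5, aligned to hg19 with Bowtie2 2.3.3.1, freed of duplicates with Picard and called with MACS2 2.1.0 at a q value of 0.05. Whether reads were shifted for the transposase is not given in the sources used here. The authors deposited 1 list of summits per library, scored on the −log10 scale of q values, as read from the lowest scores (1.31 to 1.33). No read counts are held in them, so depth is unknown and no counting interval is given.

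Ranks, counts within 50 kb and CpG content were computed with Python 3.11.15, NumPy 2.4.6, pandas 2.3.3, SciPy 1.17.1 and pysam 0.24.0 from GRCh37 and GENCODE v44lift37. Summits whose windows of 250 bp on each side overlapped were joined into 1 locus. Groups and replicate numbers came from the titles. Each gene was tested with an exact two-sided permutation test over the 6 libraries, with Benjamini-Hochberg adjustment over all genes with a summit. The procedure was checked on simulated ranks. Alternatives were the promoter window, the set of start sites, the neighborhood width, the q value, the length of the list, the ranking, the members, the replicate number as a block, and each library left out.

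Values in every library are given for the 6 open members with the highest mean rank in each family, members with ranges apart, and a list of members with a known role in breast cells. For neighborhoods they are given for the 5 members with the most summits and those with ranges apart and a mean of at least 3. Members and lists were chosen with earlier results of these data known. MITF, PMEL and other markers were read by the same promoter rule. A closed gene and a sequence are not reported here.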

Additional observations from a re-analysis of the deposited data

How the results depend on the processing

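Over 20 alternatives, wherever they were computed, the differences in the number of members with a summit and in mean promoter rank stayed positive and that in scaled neighborhood summits stayed negative, and 0 genes passed the adjusted test. With canonical start sites only, 11 members were open in place of 17, 1 was lower in every SAP30-KO1 library in place of 0, and the FOXL3 difference became 0 because its site lies over 1 kb from that start. Taking each promoter site on its own, an alternative chosen after seeing the data, gave 2 lower sites in place of 0. Replicate numbers did not pair the libraries: the deviations of same-numbered libraries correlated at -0.028, -0.029 and 0.016, so the replicate block, which asked that all 3 numbered pairs move one way, is given here only, with 6 members higher and 1 lower, and the smallest p of 3 pairs is 0.25.

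Leaving out 1 library in turn gave 17 to 20 open and 43 closed members, 4 to 8 higher and 0 to 2 lower members, a difference in the number of members with a summit of 0.167 to 3.17, in mean rank of 0.950 to 4.19 and in scaled neighborhood summits of -5.49 to -1.20, with 0 genes passing. The 8 came without SAP30-KO1 library 1 and the 2 without Parental 2 or without SAP30-KO1 library 3, as fewer libraries leave ranges apart more often. Windows of 2.5 kb gave 21 open members, adding FOXK1, FOXH1, SOX12 and SOX21, and windows of 500 bp gave 14, with a FOXL3 difference of 6.90 in place of 43.9. With 3 libraries per group no single gene can pass the test, and a weak or missing summit cannot be told apart from low depth.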
